A study of Mus musculus with 24 samples.

Results

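ERVL and MaLR subfamilies are repeats related to endogenous retrovirus L, and 217 of the 1153 repeat subfamilies in a MeRIP-seq count table of mouse embryonic stem (ES) cells belong to them. Members were chosen by name alone, as every row that the repeat annotation puts in the family ERVL or ERVL-MaLR, and the rule reads no measured value, although it was set with earlier results of these data known. MERVL-int, MT2_Mm, ORR1A0-int and MTA_Mm-int were left out by name. Of the members 111 were ERVL (15 internal parts and 96 LTRs) and 106 were MaLR (54 internal parts and 52 LTRs). A subfamily counted as internal when its name ends in "-int" and otherwise as an LTR.

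ERVL elements are retroviruses fixed in the germ line, built of an internal part that once encoded the viral proteins and a long terminal repeat (LTR) at each end. MaLR elements have similar LTRs around an internal part without recognisable viral genes. Recombination between the LTRs of an insertion leaves a solitary LTR, so that most copies in the genome are LTRs alone, and LTRs of both families can act as promoters and are known for doing so in oocytes and the early embryo. N6-methyladenosine (m6A) is placed on nuclear RNA by the methyltransferase Mettl3 with its partner Mettl14, which binds the RNA and has no activity of its own.

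Nuclear RNA came from 4 ES cell lines: WT26, a wild type line and the control of *Mettl14* KO, which is 1 clone derived from it with Cas9, and RBC, a line carrying Rosa26 BirA-V5 and Cre-ERT2 and the control of *Mettl3* KO, which is 1 clone carrying the same alleles. The methods describe 129/Sv x C57Bl6 cells, sonicated RNA and an anti-m6A antibody, with 3 MeRIP reactions combined per biological replicate. Each line had 2 input and 2 IP libraries, 16 in all in 8 groups. The p-values measure the spread between these replicates. Because each knockout is 1 clone, an effect of the gene and one of the clone cannot be told apart, and the RBC line differs from WT26 in its alleles as well.

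Libraries held 9394163 to 28441282 counts, and repeats took 32.65% to 43.3% of an input and 25.61% to 41.97% of an IP. In the inputs the 8 ES cell markers (Pou5f1, Nanog and others) summed to 9913.5 to 17726.9 normalized reads, and 6 primitive endoderm markers to 51.08 to 134.9. The sum of 6 fibroblast markers, read because feeder cells could be carried over, ran from 29.03 to 113.5. In single inputs Thy1 reached 59.58, Pdgfrb 33.67, Col1a1 30.35 and Col1a2 17.99, while Lum was at 0 in 7 of 8. The methods describe dishes coated with gelatin and name no feeder cells for the ES cells. In ES cells that resemble the early embryo MERVL elements are known to be active, and 9 genes of that state (Zscan4c, Zscan4d and others) summed to 132.8 to 225.6 in WT26 and to 34.97 to 113.5 in the other lines, and 0 of the 5 that passed the filter were called in any input comparison by edgeR, with 2 lower in *Mettl14* KO than in WT26 and 1 lower in RBC than in WT26 at an unadjusted p under 0.05, while DESeq2 called Zscan4f lower in *Mettl14* KO. The ES cell markers summed to 9913.5 and 10737.6 in *Mettl3* KO and to 15157.1 and 15402.1 in RBC. Of these 8 markers 0 were called by edgeR, 3 were lower at an unadjusted p under 0.05 and DESeq2 called Tdgf1. Their sums were lower in *Mettl14* KO too, at 12521.3 and 13669.2 against 16597.7 and 17726.9 in WT26. There 0 of 8 were called by edgeR or DESeq2, and 0 had an unadjusted p under 0.05. The part of these cell states in the results was not tested, and in bulk RNA fewer cells of a type and less RNA per cell cannot be told apart. *Mettl14* was at 261.9 and 229.4 normalized reads in the *Mettl14* KO inputs against 245.9 and 281.6 in WT26, and *Mettl3* at 553.1 and 473.7 in the *Mettl3* KO inputs against 537.4 and 537.7 in RBC. Both differed by less than the test could call (adjusted p = 0.986 and 0.964, edgeR), and a count over the whole gene does not read a small deletion, so it does not check the labels.

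In the inputs the members took 12.49% to 13.39% of all repeat reads and 4.241% to 5.696% of a library, with 472605 to 1144344 counts per library. A normalized read here is a count divided by its library's size factor, computed over all features. The number of reads of a subfamily grows with its copies and their length, so these values compare a subfamily between libraries and not subfamilies with each other. MaLR LTRs held most of the reads, with MT LTRs at 31% to 31.7% of member reads in inputs, ORR1 LTRs at 29.7% to 30.4% and MLT1 LTRs at 10.4% to 11%. Internal parts together held 12.38% to 13.12% and ERVL members 17.59% to 17.89%, so the make-up of the inputs was nearly the same in all 4 lines. Of the members 206 passed the filter on low counts and were tested (105 ERVL and 101 MaLR). The other 11 had at most 13 counts in any library and 2 of them, MLT1O-int and HERVL32-int, had none, and 2 of the 206 passed through their inputs only.

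The first comparison asked whether the members' RNA was enriched by the m6A antibody, as IP over input within each line. On size factors over all features most members were lower in the IP. On size factors from all repeat subfamilies, the members among them, their median in WT26 was -0.08. In WT26 158 of the 206 were lower in the IP and 1 was higher (adjusted p at or under 0.05, edgeR's quasi-likelihood test, adjusted over all 22621 features), where 16.1% of all features were lower and 16.9% higher. The median log2 fold change was -1.39 over the members, -1.29 over all repeat subfamilies and 0.02 over all features. Both IPs lay below both inputs for 186 of the 206 (35.6% of all features) and above both for 6 (36%). With a further limit of 1 on the log2 fold change 146 were lower and 1 higher, against 13.5% and 14.5% of all features.

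RBC, the other control, had fewer members called lower than WT26, with a count nearer that of *Mettl14* KO, and *Mettl3* KO had the fewest. The share of all features called lower fell in the same order, and the counts were not compared by a test. In RBC 137 members were lower and 2 higher (13.1% and 15.5% of all features), and past the limit of 1 there were 125 lower and 1 higher (11.1% and 13.4%), with a median of -1.29. In *Mettl14* KO 129 were lower and 1 higher (12% and 13.5%), and past the limit 116 and 0 (9.91% and 11.9%), with a median of -1.24. In *Mettl3* KO 9 were lower and 0 higher (2.22% and 2.78%), all 9 past the limit (1.86% of all features, and 2.54% on the higher side, where no member passed), with a median of -0.79. In that line 103 members were lower and 0 higher at an unadjusted p under 0.05. At that limit 2838 of all 22621 features were lower and 2965 higher, and 396 and 7 of 1097 repeat subfamilies. DESeq2's Wald test called 49 members lower and 0 higher (5.05% and 6.47% of all features).

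These calls rested on few libraries, and the share of all features called moved with them. Both control lines called 130 members lower, 118 were lower in WT26, RBC and *Mettl14* KO, 8 in all 4 lines, and 39 in none. The share of all features called in the same combinations was not computed. In WT26 alone 694 of 1097 repeat subfamilies were lower, so these shared counts are not read as a result about the members. Without WT26 input replicate 1, input replicate 2 or IP replicate 2, the WT26 count of lower members was 76, 11 or 1 (5.67%, 1.58% and 0.397% of all features). Without *Mettl14* KO input replicate 1, input replicate 2 or IP replicate 2, that line's count was 8, 1 or 0 (1.68%, 0.704% and 0.263%). Without RBC input replicate 1, input replicate 2 or IP replicate 2, the RBC count was 41, 0 or 0 (2.78%, 0.467% and 0.28%). In *Mettl3* KO the 9 became 0 without its input replicate 1, input replicate 2 or IP replicate 2 (0.174%, 0.379% and 0.134%) and 4 without its IP replicate 1 (1.21%), while leaving out 1 input of another line gave 2 (1.01% to 1.13%) and leaving out 1 IP of another line 15 to 31 (2.82% to 3.26%). The IP libraries numbered 2 were lower than those numbered 1 for most members, with a median log2 ratio of IP to input of -1.06 in pair 1 and -1.77 in pair 2 of WT26, and of -0.84 and -1.83 in RBC. The knockouts had -0.84 and -1.72 (*Mettl14* KO) and -0.53 and -1.12 (*Mettl3* KO). Libraries with the same number deviated together, and with the number as a block 172 members were lower in WT26, 172 in RBC, 165 in *Mettl14* KO and 70 in *Mettl3* KO, where that fit called 20.8%, 19%, 17.1% and 6.33% of all features lower. With the pairs of input and IP as a block the *Mettl3* KO count was 1 (1.41% of all features).

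The values depend on how the fractions are scaled. Size factors taken from repeats alone moved the median of all features on the log2 scale by 1.44 (WT26), 1.3 (RBC), 1.25 (*Mettl14* KO) and 0.75 (*Mettl3* KO). The calls for members became 22 higher and 11 lower in WT26, 17 and 8 in RBC, 14 higher and 5 lower in *Mettl14* KO, with 1 higher and 0 lower in *Mettl3* KO. In the same fit 51.7% of all features were higher and 2.53% lower in WT26, 44.7% and 1.86% in RBC, 39.5% with 1.99% lower in *Mettl14* KO, while *Mettl3* KO had 2.59% higher and 0.334% lower, and among repeat subfamilies alone 14% were higher and 5.9% lower in WT26. On that scale a value is relative to all repeat subfamilies, the members among them. The median of the 208 members tested on it was -0.08 (WT26), -0.13 (RBC), -0.1 (*Mettl14* KO) and -0.1 (*Mettl3* KO). Fold changes given for IP over input are on size factors over all features unless another scale is named. Of the 48 MaLR internal parts tested with size factors from repeats, 12 were higher in WT26, 11 in RBC and 9 in *Mettl14* KO, beside 14%, 12.6% and 9.45% of repeat subfamilies and the larger shares of all features just given.

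**Figure D1:**
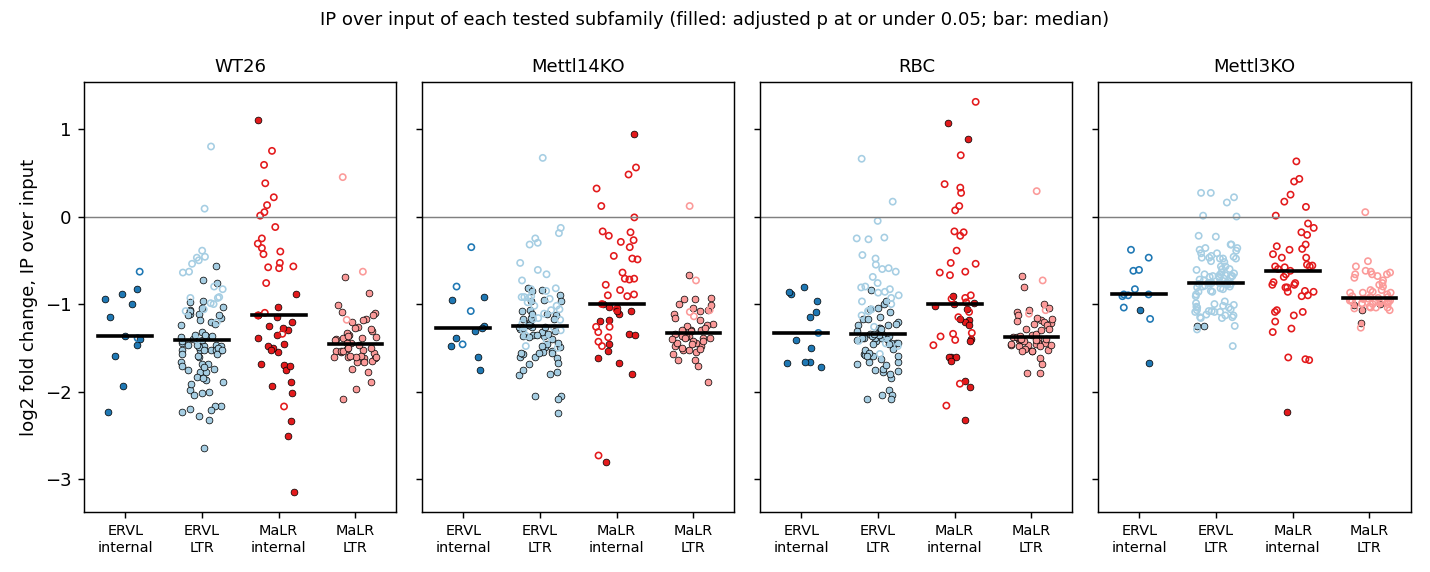
Log2 fold change of IP over input of the 206 tested subfamilies in each line (y axis), by class (x axis), with called subfamilies filled and the median of each class as a bar. MaLR internal parts spread the widest, with 8 of 49 above 0 in WT26 and a median of -1.13, while the MaLR LTRs lie close together around -1.46. Relative to repeats alone the median in WT26 is -0.08 (208 members tested on that scale) in place of -1.39.

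Summed by class, MaLR LTRs were lower in the IPs of 3 lines against all features, and not called against repeats alone, where the log2 values were -0.03 (WT26), -0.08 (RBC) and -0.07 (*Mettl14* KO). MaLR LTRs had 646915 and 642238 normalized reads in the WT26 inputs and 308342 and 197386 in the IPs, a log2 fold change of -1.35 ± 0.397 (SE, n = 2 per fraction, adjusted p = 0.0214, edgeR). In RBC the inputs held 661276 and 723331 and the IPs 361033 and 217059 (-1.26 ± 0.396, adjusted p = 0.032, edgeR), and in *Mettl14* KO 668367 and 719489 against 364758 and 229231 (-1.22 ± 0.396, adjusted p = 0.0375, edgeR). In *Mettl3* KO they held 737232 and 744084 against 501139 and 344915, which did not pass the test (-0.81 ± 0.393, adjusted p = 0.212, edgeR). All 8 IP libraries lay below all 8 inputs. Leaving out an input or the IP replicate 2 of the line ended the call in WT26 (-1.36 to -1.06, adjusted p 0.0856 to 0.177, edgeR), RBC (-1.32 to -0.93, adjusted p 0.0972 to 0.249, edgeR) and *Mettl14* KO (-1.27 to -0.91, adjusted p 0.113 to 0.278, edgeR), and in *Mettl14* KO any 1 input of the other lines did as well (adjusted p up to 0.0581, edgeR).

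MaLR internal parts stood apart from their own LTRs, and against repeats alone their sums were above 0, at 1.18 (WT26), 1.17 (RBC) and 0.97 (*Mettl14* KO). They had 92618 and 87445 normalized reads in the WT26 inputs and 75719 and 77402 in the IPs (log2 fold change -0.23 ± 0.262, adjusted p = 0.501, edgeR). In RBC the inputs held 97144 and 102935 and the IPs 89294 and 93199 (-0.13 ± 0.262, adjusted p = 0.723, edgeR). The values in *Mettl14* KO were 98224 and 97935 against 84621 and 78832, and in *Mettl3* KO 107140 and 103015 against 100383 and 82739, neither of which passed the test (adjusted p = 0.463 and 0.665, edgeR). Each line's IPs lay below its inputs, but by at most 0.32 on the log2 scale in any pair.

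In ERVL both parts were below 0 against all features and above 0 against repeats alone in WT26 (0.42 for internal parts and 0.44 for LTRs). Their internal parts had 23039 and 22557 normalized reads in the WT26 inputs and 11957 and 11214 in the IPs, a log2 fold change of -0.98 ± 0.26 (adjusted p = 0.0145, edgeR), and -1.01 in *Mettl14* KO, -0.96 in RBC and -0.8 in *Mettl3* KO (adjusted p = 0.017, 0.0189 and 0.0828, edgeR). Their LTRs had 136580 and 136413 in the WT26 inputs and 80391 and 63541 in the IPs, a log2 fold change of -0.92 ± 0.33 (adjusted p = 0.0448, edgeR), and -0.96, -0.9 and -0.6 in *Mettl14* KO, RBC and *Mettl3* KO (adjusted p = 0.0468, 0.0551 and 0.262, edgeR). The 2 classes of ERVL were within 0.2 of each other on the log2 scale in every line. Without an input or the IP replicate 2 of the line the internal parts were no longer called (adjusted p 0.073 to 0.113 in WT26, 0.0721 to 0.175 in RBC and 0.0741 to 0.176 in *Mettl14* KO, edgeR), and the LTRs lost their call without any 1 of the 8 inputs or the IP replicate 2 of the line (adjusted p 0.0625 to 0.248 in WT26 and 0.0685 to 0.326 in *Mettl14* KO, edgeR).

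**Figure D2:**
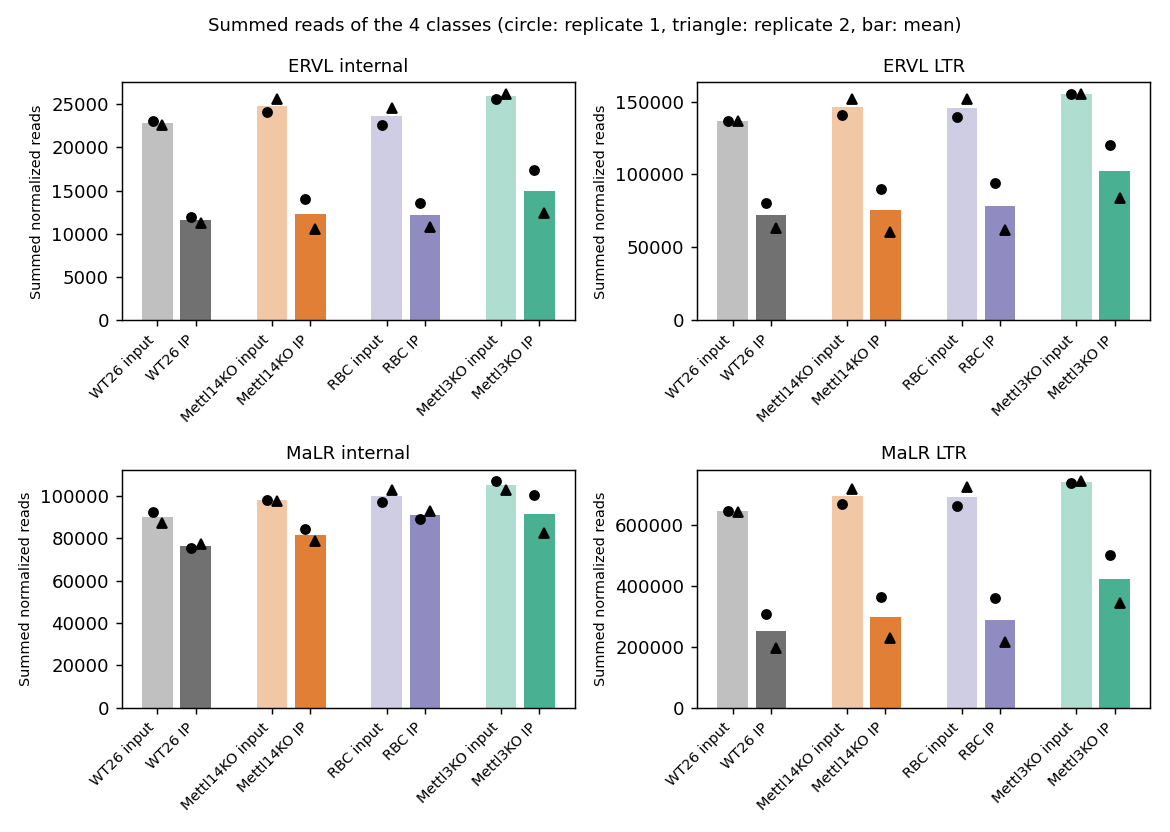
Summed normalized reads (y axis, from 0) of the 4 classes in each group of libraries (x axis), with bars for the mean of 2 libraries, circles for replicate 1 and triangles for replicate 2. Bars of the IPs stand well below those of the inputs for ERVL internal parts, ERVL LTRs and MaLR LTRs, and close to them for MaLR internal parts (76560 against 90032 in WT26). Counts are divided by size factors over all features, and against repeats alone the IPs of MaLR internal parts are higher (log2 1.18 in WT26).

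The ratio of classes inside a library needs no size factor, so it was tested separately. The log2 ratio of internal to LTR reads within MaLR was -2.82 ± 0.046 (SD, n = 8) in the inputs and -1.83 ± 0.402 (SD, n = 8) in the IPs. It was higher in both IPs than in both inputs of all 4 lines, by 1.15 in WT26, 1.17 in RBC, 1 in *Mettl14* KO and 0.63 in *Mettl3* KO, and by 0.46 to 1.59 in single pairs. An exact permutation test (two-sided, input and IP exchanged within each line) gave p = 0.00154 for the mean difference of 0.99, the smallest it can give, and 0.00205 adjusted over the 4 ratios tested. Over all members the internal to LTR ratio was higher in the IPs by 0.81 with the same exact p of 0.00154. With input and IP exchanged within pairs of the same number, both ratios gave an exact permutation p of 0.00781. These tests take the lines as independent, although IP libraries of the same number deviated together between lines.

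Within ERVL the same ratio was -2.59 ± 0.0272 (SD, n = 8) in the inputs and -2.66 ± 0.13 (SD, n = 8) in the IPs, a difference of -0.08 that did not pass the exact permutation test (p = 0.14). The single pairs ran from -0.19 to 0.1. Leaving out WT26 IP replicate 2 or RBC IP replicate 2 took it past the threshold at -0.11 (exact permutation p = 0.034 and 0.0324). Adding the 4 subfamilies left out by name turned it to 0.62 (exact permutation p = 0.00617), and of those 4 MERVL-int and MT2_Mm enter this ratio.

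The ratio of ERVL to MaLR reads was -2.22 ± 0.0106 (SD, n = 8) in the inputs and -2.07 ± 0.0852 (SD, n = 8) in the IPs. It was higher in both IPs than in both inputs of each line, by 0.24 in WT26, 0.15 in RBC, 0.1 in *Mettl14* KO and 0.08 in *Mettl3* KO (exact permutation p = 0.00154, adjusted over 4 ratios 0.00205). With the exchange within pairs the exact permutation p was 0.00781. The direction depended on weighting by reads: with each subfamily weighted alike, as the mean log2 normalized count, the difference was -0.11 (exact permutation p = 0.0108). Among the ERVL, the LTRs RMER10A, RMER10B and RMER15 took 3.96% to 4.32% of member reads in inputs and 5.27% to 7.95% in IPs, and RMER15 alone had 25083 and 26451.3 normalized reads in the WT26 inputs against 16753.3 and 22676.4 in the IPs.

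**Figure D3:**
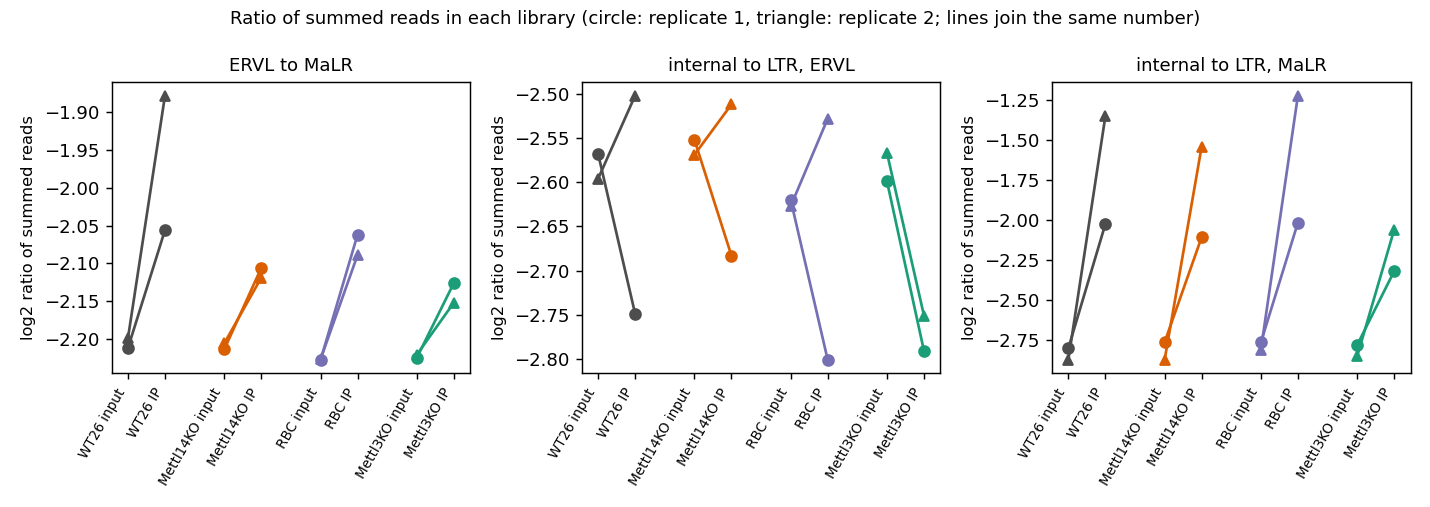
Log2 ratio of summed reads (y axis) in each input and IP library (x axis), with lines joining libraries of the same replicate number. Within MaLR every joined pair rises from input to IP by 0.46 to 1.59, the ERVL to MaLR ratio rises by 0.07 to 0.32, and within ERVL the pairs go both ways.

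Counted by subfamily, MaLR LTRs and internal parts had medians closer together than their sums, and the difference between the counts was not tested. In the WT26 comparison 49 of 52 MaLR LTRs were lower in the IP and 0 higher, against 26 of 49 internal parts lower and 1 higher, where 16.1% of all features were lower and 16.9% higher. The medians were -1.46 for the LTRs and -1.13 for the internal parts. For ERVL 72 of 92 LTRs and 11 of 13 internal parts were lower, with medians of -1.42 and -1.37. In *Mettl3* KO the medians were -0.94 and -0.62 for MaLR LTRs and internal parts, and -0.76 and -0.89 for those of ERVL.

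By lineage, MT elements (a rodent lineage of MaLR whose LTRs drive many oocyte transcripts) had all 9 LTRs lower in WT26, RBC and *Mettl14* KO, with medians of -1.54, -1.4 and -1.31, and 0 of 9 called in *Mettl3* KO (median -0.93, 9 at an unadjusted p under 0.05). Beside these and the counts that follow, 16.1% of all features were lower in WT26, 13.1% in RBC, 12% in *Mettl14* KO and 2.22% in *Mettl3* KO. At an unadjusted p under 0.05, 2838 of all 22621 features were lower in *Mettl3* KO. Of the 10 MT internal parts 5 were lower in WT26, 4 in RBC, 4 in *Mettl14* KO and 0 in *Mettl3* KO. For ORR1, the other rodent lineage, 12, 11, 10 and 0 of 14 LTRs were lower in the same order of lines, and 6, 5, 2 and 1 of 14 internal parts. For MLT1, the lineage shared by most placental mammals, 28, 28, 28 and 4 of 29 LTRs were lower, and 14, 8, 9 and 0 of 24 internal parts, with medians in WT26 of -1.54 for the LTRs and -1.47 for the internal parts. The *Mettl3* KO counts of 0 or 1 lie near the share of all features and are not read as a result about these lineages. The MLT1 internal parts had few reads, at 0.381% to 0.423% of member reads in inputs together.

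Of the 10 members with the most reads, MaLR LTRs all but RMER15, 9 were lower in WT26, though MTA_Mm (0.27), ORR1A2 (0.12) and ORR1B1 (0.15) were above 0 there against repeats alone. MTD had 88987.7 and 88505.3 normalized reads in the WT26 inputs and 37575.1 and 20852 in the IPs (log2 fold change -1.6 ± 0.404, adjusted p = 0.012, edgeR). In *Mettl3* KO it had 100979.6 and 103980 in the inputs and 63927.7 and 43324.7 in the IPs (-0.93 ± 0.397, adjusted p = 0.158, edgeR). The IPs lay below the inputs in every line. MTC (-1.5), ORR1D1 (-1.28), MTA_Mm (-1.1), ORR1F (-1.54), ORR1E (-1.41), ORR1A2 (-1.2), ORR1B1 (-1.18) and MTEa (-1.59) were lower in WT26 as well, while RMER15 was at -0.39 (adjusted p = 0.259, edgeR). In RBC all of these but ORR1D1 (adjusted p = 0.0635, edgeR) and RMER15 (adjusted p = 0.0975, edgeR) were lower, and in *Mettl3* KO none of the 10 was called. In *Mettl14* KO all but ORR1D1 (adjusted p = 0.0769, edgeR) were lower, RMER15 among them (-0.85, adjusted p = 0.0319, edgeR). Without WT26 input replicate 1, input replicate 2 or IP replicate 2 the WT26 call of MTD was lost (-1.61 to -1.23, adjusted p 0.0557 to 0.128, edgeR).

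ORR1A1-int, the internal part of a young ORR1 subfamily, was the member called higher in 3 lines. In WT26 it had 5127.7 and 4780 normalized reads in the inputs and 8318.3 and 12976.3 in the IPs (log2 fold change 1.1 ± 0.311, adjusted p = 0.0181, edgeR). In *Mettl14* KO the inputs held 5089.1 and 5232 and the IPs 7421.7 and 12420.2 (0.94 ± 0.31, adjusted p = 0.0399, edgeR), and in RBC 5564.6 and 5687.3 against 8075 and 12828.8 (0.89 ± 0.31, adjusted p = 0.0449, edgeR). In *Mettl3* KO it was at 5707.6 and 5380.6 against 7697.4 and 9438 (0.63 ± 0.309, adjusted p = 0.217, edgeR). Both IPs lay above both inputs in every line. With the pairs of input and IP as a block it was called in WT26 only, and without WT26 input replicate 1, input replicate 2 or IP replicate 2 the WT26 value was 1.15, 1.05 or 0.75 and not called. Its calls in RBC and *Mettl14* KO were lost without any 1 of the 8 inputs or the IP replicate 2 of the line (0.53 and 0.54 without that IP), and that in RBC also without either *Mettl3* KO IP. Its LTR, ORR1A1, had 7308.9 and 6624.2 in the WT26 inputs and 5096.2 and 3892.4 in the IPs (-0.63, adjusted p = 0.0811, edgeR), and was lower in RBC (-0.81, adjusted p = 0.039, edgeR).

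ORR1A3-int was called higher in RBC alone. There it had 6480.8 and 6561.9 normalized reads in the inputs and 10850.7 and 16510.3 in the IPs (log2 fold change 1.07 ± 0.238, adjusted p = 0.0105, edgeR), a call lost without RBC input replicate 1, input replicate 2 or IP replicate 2 (1.06, 1.08 and 0.75). In WT26 it had 3964.8 and 3520.3 in the inputs and 3245.4 and 3619.9 in the IPs (-0.12 ± 0.236, adjusted p = 0.7, edgeR), so the fractions overlapped. *Mettl14* KO was at 4395 and 4070.3 against 4247.4 and 4139.6, and *Mettl3* KO at 6128.1 and 5809.3 against 7893.3 and 8213.1. Whether IP over input differed between WT26 and RBC was not tested. Its input level was 0.8 ± 0.237 higher on the log2 scale in RBC than in WT26, with an adjusted p of 0.209 by edgeR and of 0.028 by DESeq2, which called no other member there.

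A few further members were above 0 without being called, and they were chosen after their values were seen. MT-int had 886.3 and 840.3 normalized reads in the WT26 inputs and 1118.2 and 1779.3 in the IPs (log2 fold change 0.75, adjusted p = 0.0671, edgeR), and was called there with the replicate number as a block (adjusted p = 0.0343, edgeR). MTB-int was at 0.59 in WT26, LTR53 at 0.8 and ORR1A4-int at 0.38 (adjusted p = 0.078, 0.106 and 0.187, edgeR). The 2 LTR53 pairs of WT26 were far apart, with 256.9 and 255.9 in the inputs and 244.4 and 653.1 in the IPs. MLT1E-int, at 1.31 in RBC, had 5.621 and 1.262 in the inputs there and 16 and 0 in the IPs.

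Well-known subfamilies fell on both sides of the threshold. MT2A, MT2B, MT2B1 and MT2B2, LTRs related to those of MERVL, were lower in the IPs of WT26 (-1.12, -1.36, -1.23 and -0.97), RBC and *Mettl14* KO, and not called in *Mettl3* KO. MT2C_Mm was the exception, with 4100 and 3942.7 normalized reads in the WT26 inputs and 3468.8 and 5075.4 in the IPs (log2 fold change 0.09, adjusted p = 0.823, edgeR). MERVL_2A-int, an internal part, had 12465.7 and 12441.4 in the WT26 inputs and 6445.4 and 6966.3 in the IPs (-0.89 ± 0.242, adjusted p = 0.0155, edgeR), and -0.83 in *Mettl3* KO (adjusted p = 0.06, edgeR). Its WT26 call was lost without WT26 input replicate 1, input replicate 2 or IP replicate 2 (adjusted p 0.0743 to 0.0952, edgeR), as were those of MT2A (0.0736 to 0.162) and LTR33 (0.109 to 0.294), the latter also without *Mettl14* KO input replicate 1 or either *Mettl3* KO input. MERVL_2A-int (0.53), MT2A (0.22), MT2B1 (0.09), MT2B2 (0.41), MTB (0.14) and LTR33 (0.2) were above 0 in WT26 against repeats alone. ORR1A0, an LTR, was at 0.45 in WT26 and 0.05 in *Mettl3* KO (adjusted p = 0.175 and 0.928, edgeR), with its WT26 IPs (6928.9 and 9467.1) above its inputs (6325.2 and 5682.4). MTB, MTB_Mm and MLT1A0 were lower in both controls and *Mettl14* KO, MLT1A0-int was not called in any line (-0.4 in WT26, adjusted p = 0.216, edgeR), ERVL-E-int was lower in the same 3 lines, and LTR33 in WT26 only (-1.08, adjusted p = 0.0358, edgeR). Of the 4 left out, ORR1A0-int was at 1.8 in WT26 and 1.38 in *Mettl3* KO (adjusted p = 0.00818 and 0.0559, edgeR) and MERVL-int at 0.85 and -0.31 (adjusted p = 0.142 and 0.688, edgeR), while MTA_Mm-int was at 1.2 and 0.69 (adjusted p = 0.021 and 0.227, edgeR) and MT2_Mm at -0.01 and -1.14 (adjusted p = 0.977 and 0.0433, edgeR).

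Among the members furthest below 0 were old LTRs and rare internal parts. LTR87, an ERVL LTR, had 442.4 and 540.5 normalized reads in the WT26 inputs and 128.9 and 71.07 in the IPs (log2 fold change -2.28 ± 0.354, adjusted p = 0.00363, edgeR) and was called in all 4 lines, at -1.25 in *Mettl3* KO (567.7 and 579.6 against 278.6 and 201.9, adjusted p = 0.0497, edgeR). MER21-int, an ERVL internal part, had 163.4 and 174.1 in the WT26 inputs and 49.58 and 20.69 in the IPs (-2.23 ± 0.438, adjusted p = 0.00661, edgeR), and LTR40a and MLT1E1 were called in all 4 lines too. The *Mettl3* KO calls of LTR87, MER21-int and MLT1E1 were lost without any 1 of the 8 inputs or either *Mettl3* KO IP, with adjusted p up to 0.408, and those of LTR40a (adjusted p up to 0.347) and ORR1G-int (up to 0.38, edgeR) without any 1 of the 8 inputs or *Mettl3* KO IP replicate 2. LTR87 in *Mettl14* KO lost its call without the IP replicate 2 of that line. ORR1G-int was at -2.51 in WT26 and -2.23 in *Mettl3* KO, on 3 to 41 counts per library, and its WT26 call was lost without WT26 input replicate 2 or IP replicate 2. LTR86A2 (-2.64 in WT26), LTR86B2, LTR53B, LTR84a, LTR89, LTR75 and MLT1F1-int were each called in at least 1 line. MLT1E3-int, the lowest value in WT26 at -3.15, rested on 12 and 8 counts in the inputs and 1 and 2 in the IPs.

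Where a subfamily's name gives both an internal part and an LTR, they can be set side by side. Of 47 such pairs the internal part had the higher log2 fold change of IP over input in 33 in WT26, 36 in RBC, 37 in *Mettl14* KO and 35 in *Mettl3* KO, with a median difference of 0.32, 0.29, 0.33 and 0.28. All 8 MT pairs had it higher in each line, and 11, 12, 12 and 11 of 13 ORR1 pairs, against 13, 14, 15 and 13 of 23 MLT1 pairs (median difference 0.05 in WT26) and 1, 2, 2 and 3 of 3 ERVL pairs. MTB-int and MTB differed the most among MT in WT26, by 1.85, and ORR1A1-int and ORR1A1 among ORR1, by 1.74. An LTR row also collects the reads of solitary LTRs and an internal row does not, so a pair compares 2 sets of copies.

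**Figure D4:**
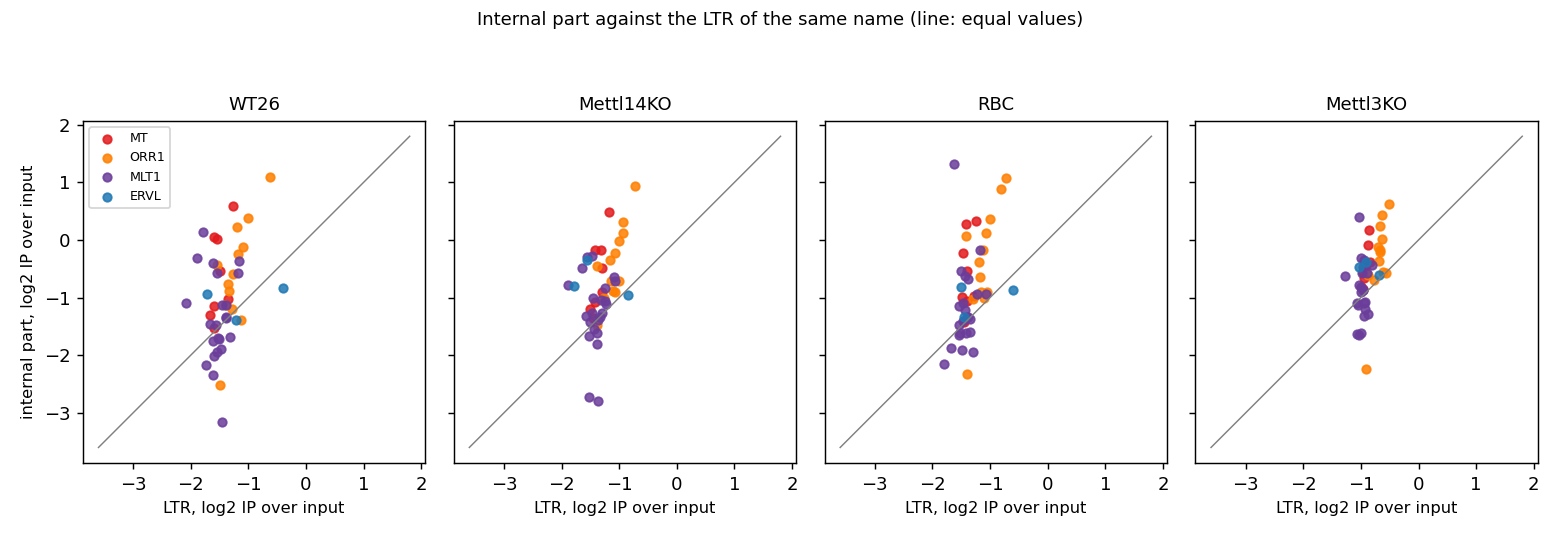
Log2 fold change of IP over input of an internal part (y axis) against that of the LTR of the same name (x axis) in each line, for 47 pairs coloured by lineage, with the line of equal values. The MT pairs all lie above the line, most ORR1 pairs do too, and MLT1 pairs lie on both sides.

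The letter in a MaLR name roughly follows the age of the subfamily, with A the youngest. For ORR1 internal parts the median log2 fold change in WT26 was 0.3 for A, -0.57 for B, -0.68 for C, -1.27 for D, -1.12 for E, -0.43 for F and -2.51 for G, the last on few reads. For MT internal parts it was 0.3 for B, -0.53 for C, 0.05 for D and -1.25 for E. The LTRs moved less, from -1.01 for A to -1.5 for G in ORR1 and from -1.1 for A to -1.59 for E in MT, and MLT1 showed no such order. In *Mettl3* KO ORR1 internal parts were at 0.34 for A, -0.25 for B, -0.2 for C and -0.57 for D. The values there for E, F and G were -0.69, -0.6 and -2.23. These are medians of 1 to 5 subfamilies and were not tested.

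**Figure D5:**
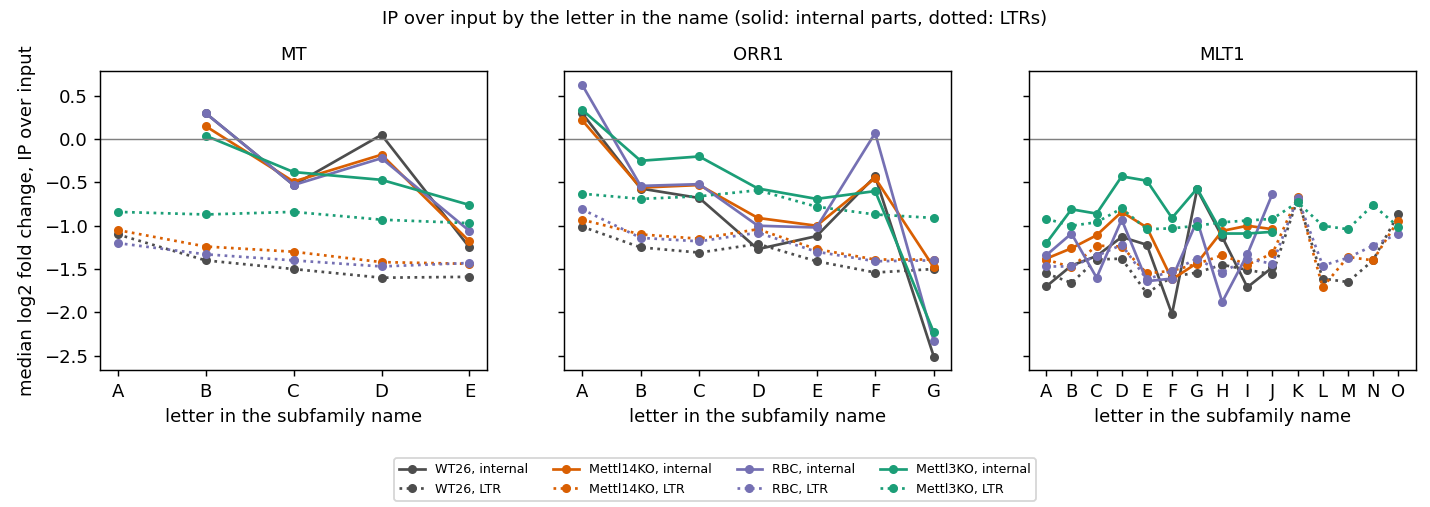
Median log2 fold change of IP over input (y axis) by the letter in the subfamily name (x axis) for MT, ORR1 and MLT1, with internal parts as solid and LTRs as dotted lines in the colour of the line of cells. ORR1 and MT internal parts with early letters lie near or above 0 (0.3 for ORR1 A in WT26), while the LTRs stay between -1.78 and -0.59. Size factors are those over all features, and those of repeats move the median of all features by 1.44 in WT26.

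The next comparison asked whether loss of the methyltransferase altered the amount of these RNAs. By edgeR none of the 206 members was called in the inputs of *Mettl14* KO against WT26, where 0.124% of all features were higher and 0.274% lower. None of the members had an unadjusted p under 0.05, where 1108 of all 22621 features were higher and 1281 lower. Among 1097 repeat subfamilies 10 were higher and 14 lower at that limit, so the 0 is not read as unchanged levels. The median log2 fold change of the members was 0.14 and that of all features 0.02. In *Mettl3* KO against RBC again none was called (0.181% higher and 0.579% lower among all features), with 1 member at an unadjusted p under 0.05 and a median of 0.1. That member was MER68-int, with 357 and 412.7 normalized reads against 239.4 and 287.8 (0.54, adjusted p = 0.38, edgeR). For RBC against WT26 none was called (0.305% higher and 0.279% lower), and 1, ORR1A3-int, had an unadjusted p under 0.05. DESeq2 called 0 members in both knockout comparisons.

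The summed reads gave small values as well. MaLR LTRs were 0.11 ± 0.39 higher in *Mettl14* KO than in WT26 and 0.1 ± 0.39 higher in *Mettl3* KO than in RBC on the log2 scale (adjusted p = 0.988 and 0.97, edgeR), and MaLR internal parts 0.12 ± 0.262 and 0.07 ± 0.262. ERVL internal parts were 0.12 ± 0.257 and 0.13 ± 0.257 higher and ERVL LTRs 0.1 ± 0.327 and 0.09 ± 0.327. All these sums differed by less than their error. The difference between the knockouts in the input change called no member either, with 0 at an unadjusted p under 0.05 (0.0398% higher and 0.102% lower among all features), and DESeq2 gave 0 as well. The 4 ratios of classes in the inputs gave no difference past the threshold between knockout and control (0, 0.002, 0.03 and -0.004 for ERVL to MaLR and for internal to LTR in all, ERVL and MaLR, exact permutation p = 1, 0.944, 0.111 and 0.833), in a design of 36 arrangements whose smallest exact p is 0.0556. All 30 genes of a list known to silence ERVL elements or to act on them (Trim28, Setdb1, Kdm1a, Chaf1a and others) were tested, and 0 were called in the *Mettl14* KO and *Mettl3* KO comparisons by edgeR and by DESeq2, with 2 lower in *Mettl14* KO and 1 higher in *Mettl3* KO at an unadjusted p under 0.05, and medians of -0.22 and -0.04.

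The last comparison asked whether IP over input itself changed in the knockouts. By edgeR 0 of 206 members were called higher or lower in *Mettl14* KO against WT26 and 0 in *Mettl3* KO against RBC, and 0% of all 22621 features were called in either. No member had an unadjusted p under 0.05 in these comparisons, and DESeq2 called 0 members. The members' values lay nearer 0 in the knockouts, which was not tested, and the control values enter both sides of these counts. Of the 195 members below 0 in WT26 156 were higher in *Mettl14* KO, and of the 11 above 0 all 11 were lower. Of the 194 below 0 in RBC 181 were higher in *Mettl3* KO, and of the 12 above 0 11 were lower. These counts were made for members only. Over all features the quartiles of IP over input lay nearer 0 in the knockouts as well. They were -0.53 and 0.55 in *Mettl3* KO against -0.76 and 0.82 in RBC. In *Mettl14* KO they were -0.76 and 0.79 against -0.83 and 0.84 in WT26. The members' median change was 0.46 in *Mettl3* KO, beside 0.46 over all repeats and 0.01 over all features. In *Mettl14* KO it was 0.13, beside 0.16 and 0.02. By class it was 0.47 for MaLR LTRs, 0.27 for MaLR internal parts, 0.52 for ERVL LTRs and 0.37 for ERVL internal parts in *Mettl3* KO, and 0.13, 0.11, 0.15 and 0.09 in *Mettl14* KO. The ratio of ERVL to MaLR reads, IP over input, differed by -0.1 between the knockouts and their controls (exact permutation p = 0.0556, the smallest this design gives), and that of internal to LTR within MaLR by -0.35 (exact permutation p = 0.278).

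Across the 206 subfamilies the log2 fold changes of IP over input had Pearson's r = 0.858 (Spearman's rho 0.835) between WT26 and RBC, lines with no library in common. They had 0.79 (0.777) between the knockouts. The input changes of the 2 knockouts had 0.073 (0.142). These are descriptions across subfamilies, which share libraries and reads and are not independent.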

How the data were processed

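Raw counts per gene and per repeat subfamily of 16 MeRIP-seq libraries were used as deposited by the authors, whose pipeline was cutadapt 1.8.1 for trimming, STAR 2.6.0c against GRCm38 (a read may have 100 positions at most) and TEtranscripts for counting, with no normalization. A multimapping read can therefore be shared among subfamilies of close sequence, and whether counting used strand is not given in the sources used here. A second table of 8 RNA-seq libraries holds genes alone and were not used. Counts were fitted with edgeR 4.0.16 in R 4.3.3, by its quasi-likelihood test with size factors of DESeq2 1.42.0, filterByExpr, 8 groups and Benjamini-Hochberg adjustment over 22621 features (common biological coefficient of variation 0.273). Sums of classes were added to that table as further rows. Single ratios of IP to input took a pseudocount of 1.

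Libraries of the same replicate number are labelled alike, and they deviated together from their group means (correlation 0.195 to 0.28 for input with IP of a line, 0.251 to 0.452 between inputs and 0.598 to 0.806 between IPs of different lines), so fits with the number as a block are given too. Replicates of a group differed by more than counting noise in every group. Alternatives were TMM, size factors from repeats, no filter, DESeq2's Wald test, blocks, and leaving out each library.

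The members, gene lists and tests were chosen with earlier results of these data known. Members are named if among the 10 with the most reads, the 5 highest or lowest called in a line without overlap of the fractions, called in another comparison, or on a list of well-known subfamilies. Total counts set counting error only, and 2 libraries per group limit the precision more.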

Additional observations from a re-analysis of the deposited data

How the results depend on the processing

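Scaling moved the most. With size factors from repeats alone, 22 members were higher and 11 lower in WT26, 17 and 8 in RBC, 14 higher and 5 lower in *Mettl14* KO, with 1 higher and 0 lower in *Mettl3* KO, where the same fit called 51.7% of all features higher and 2.53% lower in WT26, 44.7% and 1.86% in RBC, 39.5% with 1.99% lower in *Mettl14* KO, while *Mettl3* KO had 2.59% higher and 0.334% lower. The log2 sums in WT26 were then 0.44 for ERVL, 0.19 for MaLR, 0.42 for ERVL internal parts, 0.44 for ERVL LTRs, 1.18 for MaLR internal parts and -0.03 for MaLR LTRs. In *Mettl14* KO they were 0.2, 0.1, 0.18, 0.2, 0.97 and -0.07 in that order, and in RBC 0.15 for MaLR, 0.28 for ERVL internal parts, 1.17 for MaLR internal parts and -0.08 for MaLR LTRs. Single members were compared only where named, and are listed if they turned to above 0 with a call on either scale. The list is therefore not of all members above 0 on the scale of repeats. In WT26 they were MTA_Mm (0.27), ORR1A2 (0.12), ORR1B1 (0.15), RMER15 (1.08), MT2A (0.22), MT2B1 (0.09), MT2B2 (0.41), MERVL_2A-int (0.53), MTB (0.14), ORR1A1 (0.72) and LTR33 (0.2). In *Mettl14* KO they were MTA_Mm (0.16), ORR1A2 (0.25), ORR1B1 (0.06), RMER15 (0.37), MT2A (0.04), MT2B1 (0.05), MT2B2 (0.23), MERVL_2A-int (0.29) and MTB (0.02). In RBC they were MTA_Mm (0.03), ORR1A2 (0.14), ORR1B1 (0.06), MT2A (0.13), MT2B1 (0.08), MT2B2 (0.28), MERVL_2A-int (0.38) and ORR1A1 (0.4). This setting takes repeats as constant by construction. With TMM the sums no longer called were ERVL LTRs in WT26 (-0.96), ERVL (-0.94), MaLR (-1.04), ERVL LTRs (-0.93) and MaLR LTRs (-1.2) in *Mettl14* KO, and MaLR in RBC (-1.03), and 4 members were lower in *Mettl3* KO (1.84% of all features). Without the filter 58 were lower in *Mettl3* KO (3.27%).

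Libraries of the same number deviated together, so blocks were fitted. Over the members the correlation was 0.507 to 0.742 between IPs of different lines. For input with IP of a line it was 0.046 to 0.239, beside -0.138 to 0.235 for input with IP of different lines. With the replicate number as a block 2 members were higher in WT26, 70 were lower in *Mettl3* KO (6.33% of all features), and the sums of ERVL (-0.93) and ERVL LTRs (-0.92) in RBC and of ERVL internal parts in *Mettl3* KO (-0.81) were called. With the pairs of input and IP as a block 0 members were higher in *Mettl14* KO, 1 was higher in RBC and 1 lower in *Mettl3* KO, and the sums of ERVL (-0.94), MaLR (-1.18) and ERVL LTRs (-0.93) in WT26, of ERVL (-0.99), MaLR (-1.09), ERVL LTRs (-0.99) and MaLR LTRs (-1.26) in *Mettl14* KO, and of MaLR (-1.08) and MaLR LTRs (-1.3) in RBC were not called. A block on the number within inputs and within IPs, chosen after seeing the data, gave 6 higher and 182 lower in WT26, 5 and 182 in RBC, 4 higher and 179 lower in *Mettl14* KO, 2 higher and 162 lower in *Mettl3* KO (26.9%, 25.7%, 24.8% and 17.1% of all features lower in that order), with 1 member higher in the inputs of RBC against WT26. It called ERVL (-0.93) and ERVL LTRs (-0.93) in RBC and ERVL (-0.65), MaLR (-0.74), ERVL internal parts (-0.81), ERVL LTRs (-0.63) and MaLR LTRs (-0.83) in *Mettl3* KO. Beyond these and single members named for IP over input, the blocks changed no other call. Of all features, the block on the number called 21.1% higher in WT26. The block on pairs called 13.2% higher in *Mettl14* KO, 15.6% higher in RBC and 1.41% lower in *Mettl3* KO. The block within fractions called 27.2% higher in WT26, 26.2% in RBC, 24.9% in *Mettl14* KO and 16.8% in *Mettl3* KO. DESeq2 called 49 members lower in *Mettl3* KO (5.05% of all features), 1 higher in the inputs of RBC against WT26, and the sums of ERVL (-0.9) and ERVL LTRs (-0.9) in RBC and of ERVL internal parts (-0.8) in *Mettl3* KO.

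Leaving out 1 library at a time, where a lone library was assumed to vary like the other groups, gave 0 to 4 members higher and 1 to 163 lower in WT26, 0 to 3 higher and 0 to 165 lower in RBC, 0 to 1 higher and 0 to 157 lower in *Mettl14* KO, with 0 to 31 lower in *Mettl3* KO. The sums in WT26 ran from -1.09 to -0.78 (ERVL), -1.42 to -0.93 (MaLR), -1.02 to -0.92 (ERVL internal parts), -1.1 to -0.76 (ERVL LTRs) and -1.71 to -1.06 (MaLR LTRs). In *Mettl14* KO they ran from -1.27 to -0.7, -1.36 to -0.8, -1.23 to -0.8, -1.28 to -0.68 and -1.59 to -0.91 in the same order, and in RBC from -1.21 to -0.64, -1.35 to -0.8, -1.13 to -0.79, -1.22 to -0.62 and -1.67 to -0.93. The internal to LTR ratio within ERVL ran from -0.11 to -0.04. It was 0.62 with the 4 subfamilies left out by name, and the ERVL to MaLR ratio was -0.11 with each subfamily weighted alike. The causes of these changes, other than the construction named above, were not tested. Depth limits rare internal parts, where single counts set the value.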

Other observations

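Most ERVL members outside the MT2 and MERVL group are LTRs. Of the 10 MLT2 LTRs 8 were lower in the IP of WT26, 6 in RBC, 9 in *Mettl14* KO and 0 in *Mettl3* KO, with medians of the log2 fold change of -1.17, -1.17, -1.18 and -0.69. Among all features 16.1%, 13.1%, 12% and 2.22% were lower in these lines, and the *Mettl3* KO counts of the LTR groups lie near that share. Of the 12 LTR16 LTRs 10, 6, 6 and 0 were lower in the same order, with medians of -1.22, -1.13, -1.04 and -0.54. Of the 57 tested LTRs of no named group 45, 39, 34 and 2 were lower (medians -1.57, -1.45, -1.36 and -0.8), and of the 11 tested internal parts of that kind 9, 10, 7 and 2 (medians -1.39, -1.41, -1.31 and -0.9). The 3 RMER LTRs had 0, 0, 1 and 0 lower, with medians of -0.46 in WT26, -0.26 in RBC, -0.25 in *Mettl14* KO and 0.22 in *Mettl3* KO. All these values are on size factors over all features, and no difference between the groups was tested.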
